A study of Mus musculus with 6 samples.

Results

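The 10 genes described here encode the transcription factors and regulators of the mouse pluripotency network: Pou5f1, Nanog, Sox2, Klf4, Klf2, Esrrb, Tfcp2l1, Zfp42, Sall4 and Dppa3. They were chosen by name, as every non-control array probe annotated to one of these symbols or, for Tfcp2l1, to its earlier symbol Tcfcp2l1. This gave 17 of 41174 probes and 10 of 27597 gene names. Of the 10 genes, 5 have more than 1 probe.

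Pou5f1 and Sox2 bind DNA side by side and, with Nanog, form the core of the network that keeps cells of the early embryo and embryonic stem cells pluripotent. Around this core stand Esrrb, Tfcp2l1, Klf2 and Klf4, which maintain the naive state and link it to the cytokine LIF, a signal relayed by the kinase Jak1 and the factor Stat3. Several of these genes are also transcribed in the growing oocyte, so that the egg carries their mRNA as a maternal store before the embryo transcribes its own copies.

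RNA was measured on 6 single-colour (Cy3) Agilent arrays of the B6C3 F1 mouse strain, 1 sample per array, in 4 groups: climacteric blastocysts (2 arrays), young blastocysts (2 arrays), climacteric ooplasts (1 array) and young ooplasts (1 array). A blastocyst is the preimplantation embryo, in which an inner cell mass lies inside a trophectoderm shell. An ooplast is an oocyte without its chromosomes, and climacteric marks oocytes of reproductively aged females. The series' title concerns the reprogramming of somatic nuclei by oocytes, but the labels give neither the way the blastocysts were made nor from how many animals or embryos each sample came, nor the age of the females in days. Replicates are called biological in the design text, without naming cultures or animals. The p-values therefore reflect spread between samples that may be technical.

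A level is log2 of the spot signal minus the 75th percentile of its own array, so a level of 0 lies at that percentile and a level is relative to the other RNA of the sample, not an amount per cell or embryo. The blastocyst arrays had between 49.9% and 57.3% of their 43379 non-control spots well above background by the scanner software, against 42.2% on the climacteric and 42.4% on the young ooplast array. The 75th percentile of the signal was between 721 and 1111 units on the blastocyst arrays and 238 and 235 units on the ooplast arrays. On this scale the faintest level well above background was -2.20 on the climacteric and -2.30 on the young ooplast array. It was between -3.97 and -3.45 on the blastocyst arrays, so faint probes could read lower there. The part of this in the stage differences of faint genes was not tested. Per the file headers the arrays lay on 2 slides: on slide 1 were the first blastocyst replicates and both ooplast samples, and on slide 2 the second blastocyst replicates. The markers followed the stage labels. The summed signal of 12 trophectoderm markers was 1393 to 1743 times the array's 75th percentile on the blastocyst arrays, 27.6 on the climacteric and 26.6 on the young ooplast array. That of 12 oocyte markers was 14.5 to 25.2 on the blastocyst arrays, 4398 on the climacteric and 4614 on the young ooplast array. Of 11 cumulus and granulosa markers, 5 to 7 were above background on a blastocyst array and 6 on each ooplast array, with Lhcgr not above it on any array. Their summed signal was 12.1 to 20.9 times the 75th percentile on the blastocyst arrays, 86.1 on the climacteric and 89.5 on the young ooplast array. Most of the ooplast sums came from 1 gene, Cyp19a1, at a level of 6.22 on the climacteric and 6.30 on the young ooplast array. Of the 7 markers tested, 4 were lower and 1, Amhr2, was higher in blastocysts, where 39.0% of all genes tested were lower and 35.5% higher. Of 10 leucocyte markers, 4 to 6 were above background on a blastocyst array, against 8 on the climacteric and 4 on the young ooplast array, with Itgam on none. Their summed signal was 38.0 times that percentile on replicate 1 of climacteric blastocysts and 2.66 on replicate 2. It was 2.76 and 3.04 in young blastocysts, 37.0 on the climacteric and 3.04 on the young ooplast array. The high sums thus fell on the climacteric arrays of slide 1. The part of these cells in the results was not tested.

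RefSeq places promoters for 8 of the 10 genes, as 11 windows, and the 250 bases upstream of the first start site are shown for the 5 genes in which a motif was found, Nanog, Sox2, Tfcp2l1, Pou5f1 and Zfp42. The windows of Klf4, Klf2 and Esrrb held none of the 3 motifs given here and are not shown. The windows are from GRCm38.p6, written 5′ to 3′ on the gene's strand and ending just before the start site. Capitals mark 3 motifs found on either strand: the octamer core ATGCAAA bound by POU factors, CATTGT bound by SOX factors, and CCACNCCC bound by KLF factors.
Nanog, chr6:122707239-122707488, + strand: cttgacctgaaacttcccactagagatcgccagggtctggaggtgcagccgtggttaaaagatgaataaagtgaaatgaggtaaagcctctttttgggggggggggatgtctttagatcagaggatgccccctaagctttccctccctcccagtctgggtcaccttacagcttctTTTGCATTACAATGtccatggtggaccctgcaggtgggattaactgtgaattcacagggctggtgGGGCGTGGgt
Sox2, chr3:34649745-34649994, + strand: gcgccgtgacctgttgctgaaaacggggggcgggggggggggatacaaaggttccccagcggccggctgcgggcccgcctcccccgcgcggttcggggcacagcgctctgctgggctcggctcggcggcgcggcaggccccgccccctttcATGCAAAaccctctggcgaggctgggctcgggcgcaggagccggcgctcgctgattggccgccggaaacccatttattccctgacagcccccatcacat
Tfcp2l1, chr1:118627695-118627944, + strand: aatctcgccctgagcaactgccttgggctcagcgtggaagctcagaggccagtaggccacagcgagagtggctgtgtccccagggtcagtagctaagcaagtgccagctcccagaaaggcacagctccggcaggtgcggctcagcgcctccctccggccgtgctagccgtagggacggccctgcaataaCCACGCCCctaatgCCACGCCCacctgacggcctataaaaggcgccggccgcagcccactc
Pou5f1, chr17:35505782-35506031, + strand: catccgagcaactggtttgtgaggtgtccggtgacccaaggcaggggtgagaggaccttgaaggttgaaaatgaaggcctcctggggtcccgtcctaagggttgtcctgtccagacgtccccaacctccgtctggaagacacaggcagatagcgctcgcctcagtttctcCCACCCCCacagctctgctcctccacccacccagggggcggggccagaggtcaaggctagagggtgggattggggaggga
Zfp42, chr8:43307010-43307259, - strand: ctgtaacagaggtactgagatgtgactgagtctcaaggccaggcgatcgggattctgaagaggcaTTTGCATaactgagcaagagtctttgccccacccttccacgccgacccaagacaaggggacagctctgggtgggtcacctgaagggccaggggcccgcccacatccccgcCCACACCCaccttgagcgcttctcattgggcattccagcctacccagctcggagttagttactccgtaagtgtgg

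In the Nanog window the octamer core and the SOX motif lie on the minus strand with 1 base between them, from 75 to 62 bases before the start site. Among 32851 windows of this length, this composite occurred in 2, and both are overlapping Nanog windows. The octamer core alone was also found in the Sox2 window, 99 to 93 bases before the start, and in the Zfp42 window, 185 to 179 bases before it. The KLF motif stood once each in the Nanog, Pou5f1 and Zfp42 windows and at 2 places in the Tfcp2l1 window, 61 to 54 and 47 to 40 bases before the start. These are the windows of the first start sites. In those of the second, not shown, Nanog held 2 KLF motifs and Pou5f1 a SOX motif 158 to 153 bases before the start. In all 32851 windows the octamer core was present in 4.12%, the SOX motif in 10.7% and the KLF motif in 15.9%. The motif AAGGTCA bound by estrogen-related receptors, present in 4.08% of windows, was not in any of the 11 windows of these genes. A match describes the letters of the window and not binding.

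Of the 10 genes, 3 rose and 2 fell in blastocysts relative to ooplasts. Nanog, Sox2 and Tfcp2l1 were higher, Esrrb and Sall4 were lower, and Pou5f1, Klf4, Klf2, Zfp42 and Dppa3 did not pass the test by the probe that stood for each gene. The 3 genes called higher entered the test through the blastocyst arrays alone, as none of them was above background in ooplasts. Most genes on the array passed this test, 35.5% of the 15605 genes tested as higher and 39.0% as lower, so the share of these 10 genes that passed is no larger than that of the array as a whole. The median difference was 0.26 on the log2 scale over the 10 genes and -0.26 over all genes tested, and it ranged with the scaling of the arrays from 0.061 to 0.37 for the 10 genes and from -0.46 to -0.13 for all genes. All tests of stage used limma on the 6 arrays with age as a term and Benjamini-Hochberg adjustment over all genes tested. With slide as a block Sall4 differed by -1.19, and the calls of Nanog, Tfcp2l1 and Sall4 held in that fit and within slide 1 alone. In whole blastocysts, fewer cells of a type and less RNA per cell cannot be told apart. The mouse genome holds retrocopies of Pou5f1, Nanog and Dppa3, and whether their transcripts add to the probes was not tested.

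**Figure D1:**
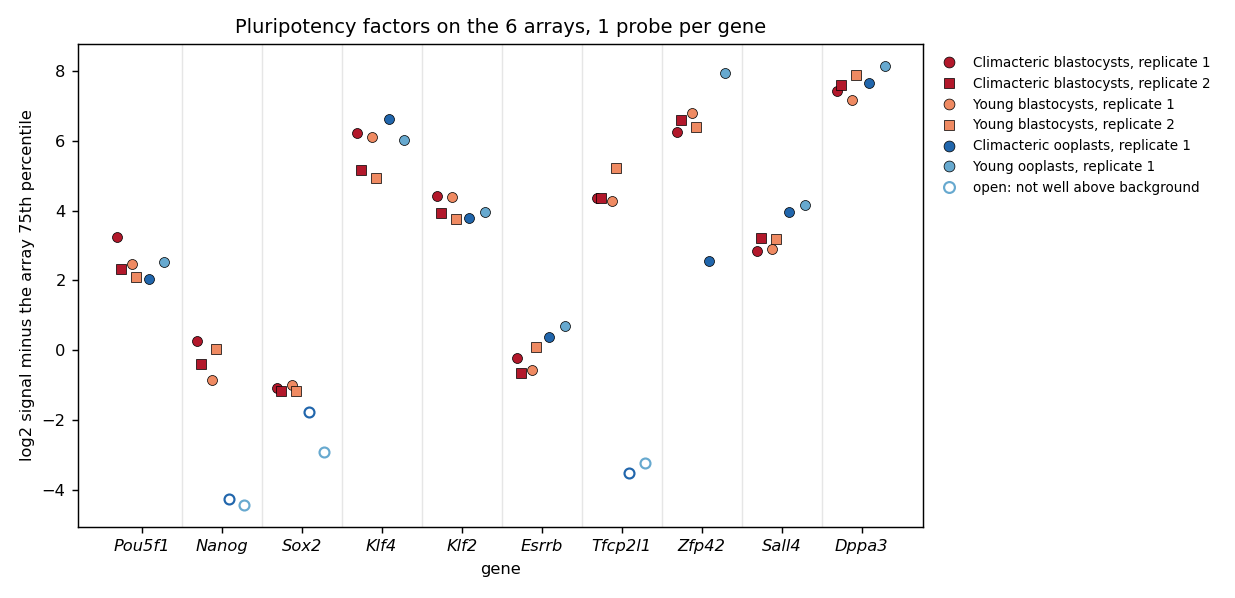
Level of the 10 genes on every array (vertical axis, log2 of signal over the 75th percentile of the array), 1 probe per gene, with circles for replicate 1, squares for replicate 2 and open symbols where the probe was not well above background. Nanog, Sox2 and Tfcp2l1 have open symbols on both ooplast arrays, and the climacteric ooplast array stands apart for Zfp42, at 2.55. The heights of different genes come from different probes and are not comparable.

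Pou5f1, the POU-domain factor in the core of the network, was detected on all 6 arrays. Its level was 3.26 and 2.33 in climacteric blastocysts and 2.46 and 2.09 in young blastocysts, against 2.05 in climacteric ooplasts and 2.51 in young ooplasts. The stages overlapped: the young ooplast array lay above 3 of the 4 blastocyst arrays. The difference of 0.25 ± 0.39 (SE) was within the spread between arrays, with limma adjusted p = 0.575. In mm8, the genome build used by the files, the probe maps to chromosome 17 from 35118388 to 35118448.

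Nanog, the homeodomain factor that marks the epiblast precursors of the inner cell mass, stood at 0.27 and -0.39 in climacteric blastocysts and -0.84 and 0.04 in young blastocysts. In climacteric and young ooplasts the probe read -4.26 and -4.43 and was not well above background. Nanog was at least 4.05-fold higher in blastocysts, a lower bound taken against the faintest signal that counts as above background on the ooplast arrays. The limma adjusted p of 9.96e-05 belongs to the difference between readings, 4.12, and not to this bound. This bound is 2.02 on the log2 scale, and with the normexp background correction the difference was smaller, at 1.39. All 4 blastocyst arrays lay above both ooplast arrays. The probe lies on chromosome 6 from 122679692 to 122679751 (mm8).

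Sox2, the DNA-binding partner of Pou5f1, had a narrow range in blastocysts. It stood at -1.09 and -1.16 in climacteric and -1.01 and -1.17 in young blastocysts, against readings of -1.78 and -2.92 in climacteric and young ooplasts that were not well above background. Sox2 was at least 1.90-fold higher in blastocysts, and the difference between readings, 1.24, had limma adjusted p = 0.0144. The ooplast readings were 1.14 apart, while the SD among the 4 blastocyst arrays was 0.076, and the call rests on the young ooplast array. Without the young ooplast array the difference was 0.65 with adjusted p = 0.145, and with the normexp background correction it was 0.17 with adjusted p = 0.489. Within slide 1 it was 1.30 with adjusted p = 0.0605. The probe lies on chromosome 3 from 34843400 to 34843459 (mm8).

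Tfcp2l1, a grainyhead-like factor that upholds the naive state downstream of LIF, was above background in blastocysts and not in ooplasts by its probe 1. This probe stood at 4.36 and 4.36 in climacteric blastocysts and 4.26 and 5.23 in young blastocysts, against readings of -3.53 in climacteric and -3.23 in young ooplasts. This was at least 111-fold higher in blastocysts, and the difference between readings, 7.93, had limma adjusted p = 1.11e-05. The bound is 6.80 on the log2 scale, and with the normexp background correction the difference was smaller, at 5.91. The other 3 probes of the gene stayed faint: probes 3 and 4 were above background on 3 of 4 blastocyst arrays each and on no ooplast array, and probe 2 was above background on none of the 6. Probe 1 lies on chromosome 1 from 120512615 to 120512674 (mm8), downstream of probe 3 at 120508091 to 120508150 and probe 4 at 120506052 to 120506111, and the files give no position for probe 2.

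Esrrb, an orphan nuclear receptor that activates naive-state genes, fell in blastocysts by 0.88 ± 0.30 (SE) on the log2 scale (limma adjusted p = 0.0352). Its level was -0.22 and -0.65 in climacteric blastocysts and -0.56 and 0.09 in young blastocysts, against 0.38 and 0.71 in climacteric and young ooplasts. All 4 blastocyst arrays lay below both ooplast arrays. The call was close to the threshold, and in 9 of 19 alternatives it was no longer made, among them the fit with slide as a block, where the difference was -0.94 with adjusted p = 0.0697. It was lost without the young ooplast array (-0.82, adjusted p = 0.156), the climacteric ooplast array (-0.94, 0.120), replicate 1 of young blastocysts (-0.73, 0.0710) or replicate 2 of climacteric blastocysts (-0.80, 0.0854). Probe 1 lies on chromosome 12 from 87410542 to 87410601 (mm8). Probe 2, at 87404222 to 87404281, was above background on all 4 blastocyst arrays and not in ooplasts. By this probe the difference of -0.57 ± 0.28 (SE) did not pass the test (limma over all probes, adjusted p = 0.105).

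Klf4 and Klf2 encode zinc finger factors that partly stand in for one another in holding embryonic stem cells in the naive state. Klf4 stood at 6.22 and 5.15 in climacteric blastocysts and 6.11 and 4.94 in young blastocysts, against 6.63 and 6.02 in climacteric and young ooplasts. The stage difference of -0.72 ± 0.46 (SE) did not pass the test (limma adjusted p = 0.196), and the blastocyst arrays split by replicate. Replicate 2, on slide 2, lay below replicate 1 by 1.07 in climacteric and by 1.17 in young blastocysts. Of 15971 genes, 140, or 0.877%, were lower on slide 2 at both ages by at least as much as Klf4 was at its smaller difference. With slide as a block the stage difference was -0.16 with adjusted p = 0.657. The Klf4 probe maps to chromosome 4 from 55549061 to 55549120 (mm8, minus strand).

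Klf2 gave different readings by its 2 probes, which start 1376 bases apart on chromosome 8. Probe 1, from 75250227 to 75250286 (mm8), stood at 4.42 and 3.93 in climacteric and 4.38 and 3.77 in young blastocysts, against 3.77 and 3.96 in climacteric and young ooplasts. These overlapped, and the difference of 0.26 ± 0.30 (SE) did not pass the test (limma adjusted p = 0.462). Probe 2, from 75248851 to 75248910, stood at 2.02 and 1.91 in climacteric and 1.33 and 1.39 in young blastocysts, against 2.78 and 3.0 in climacteric and young ooplasts. By this probe Klf2 fell in blastocysts by 1.23 ± 0.29 (SE) on the log2 scale (limma over all probes, adjusted p = 0.00871), with no overlap between stages.

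**Figure D2:**
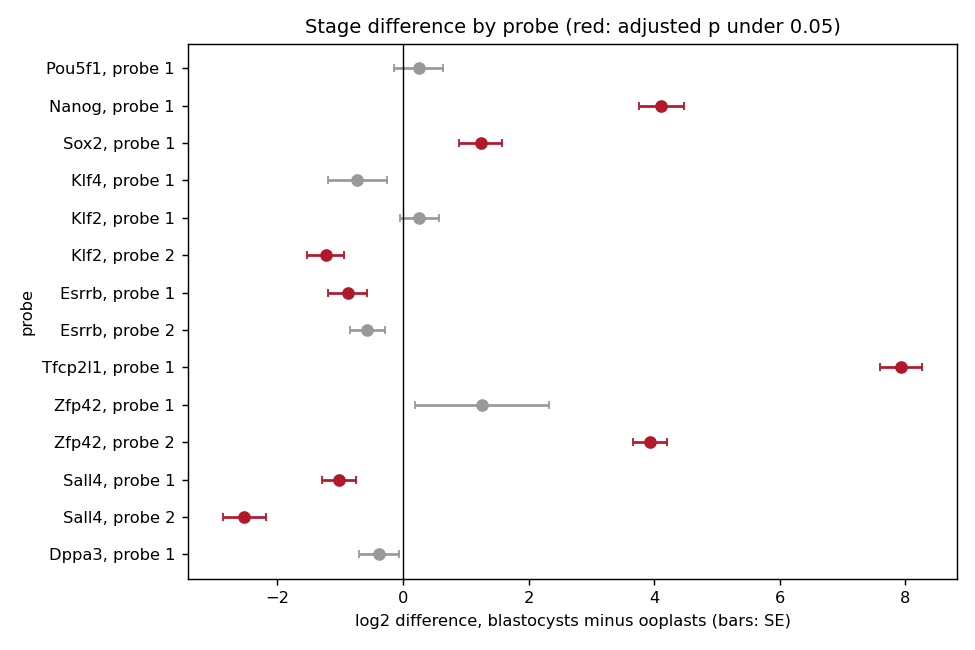
Difference between stages (horizontal axis, log2, blastocysts minus ooplasts, bars are SE) for the 14 probes of the 10 genes that passed the filter on dim probes, with red for adjusted p under 0.05 over all probes. Tfcp2l1 probe 1 and Nanog, both set against ooplast readings not above background, lie farthest to the right, and Sall4 probe 2 farthest to the left; the 2 probes of Klf2 lie on opposite sides of 0.

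Zfp42, also called Rex1, is a zinc finger marker of undifferentiated embryonic stem cells, and 1 of its ooplast readings decided its result. Probe 1 stood at 6.25 and 6.58 in climacteric and 6.78 and 6.40 in young blastocysts, against 2.55 in climacteric ooplasts and 7.93 in young ooplasts. The blastocyst arrays fell between the 2 ooplast arrays, and the stage difference of 1.27 ± 1.07 (SE) did not pass the test (limma adjusted p = 0.317). Without the climacteric ooplast array it was -1.33 with adjusted p = 0.0297, and without the young one it was 3.86 with adjusted p = 0.000774. These fits have 1 ooplast array, which is assumed to vary like the blastocyst arrays. Probe 2 stood at 2.48 and 2.49 in climacteric and 2.73 and 3.07 in young blastocysts, against -1.71 and -0.77 in climacteric and young ooplasts. By probe 2 Zfp42 rose in blastocysts by 3.94 ± 0.27 (SE) (limma over all probes, adjusted p = 3.99e-05). The probes lie on the minus strand of chromosome 8 from 44794130 to 44794189 and from 44794170 to 44794241 (mm8) and share 20 positions.

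Sall4, a spalt-family zinc finger protein that works with Pou5f1, fell in blastocysts by both of its probes. Probe 1 stood at 2.84 and 3.21 in climacteric and 2.89 and 3.17 in young blastocysts, against 3.95 and 4.16 in climacteric and young ooplasts. It fell by 1.02 ± 0.26 (SE) on the log2 scale (limma adjusted p = 0.0117). Probe 2 stood at -0.40 and -1.19 in climacteric and -0.85 and -1.35 in young blastocysts, against 1.95 and 1.21 in climacteric and young ooplasts. By probe 2 Sall4 fell by 2.53 ± 0.34 (SE) (limma over all probes, adjusted p = 0.000683). No blastocyst array reached an ooplast array with either probe. For probe 1 the call was lost without the young ooplast array, at -0.92 with adjusted p = 0.0804. The probes lie on the minus strand of chromosome 2 from 168443877 to 168443936 and from 168440038 to 168440097 (mm8), 3839 bases apart.

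Dppa3, also called Stella, is a maternal factor that protects the maternal genome from loss of DNA methylation after fertilisation and is expressed again in pluripotent cells and germ cells. It stood at 7.42 and 7.59 in climacteric and 7.17 and 7.89 in young blastocysts, against 7.66 and 8.14 in climacteric and young ooplasts. The stages overlapped, and the difference of -0.38 ± 0.31 (SE) was not called (limma adjusted p = 0.293). Its sign depended on the scaling, since quantile normalization gave 0.46 with adjusted p = 0.253. The probe lies on chromosome 6 from 122595735 to 122595794 (mm8), in the same region as Nanog.

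**Figure D3:**
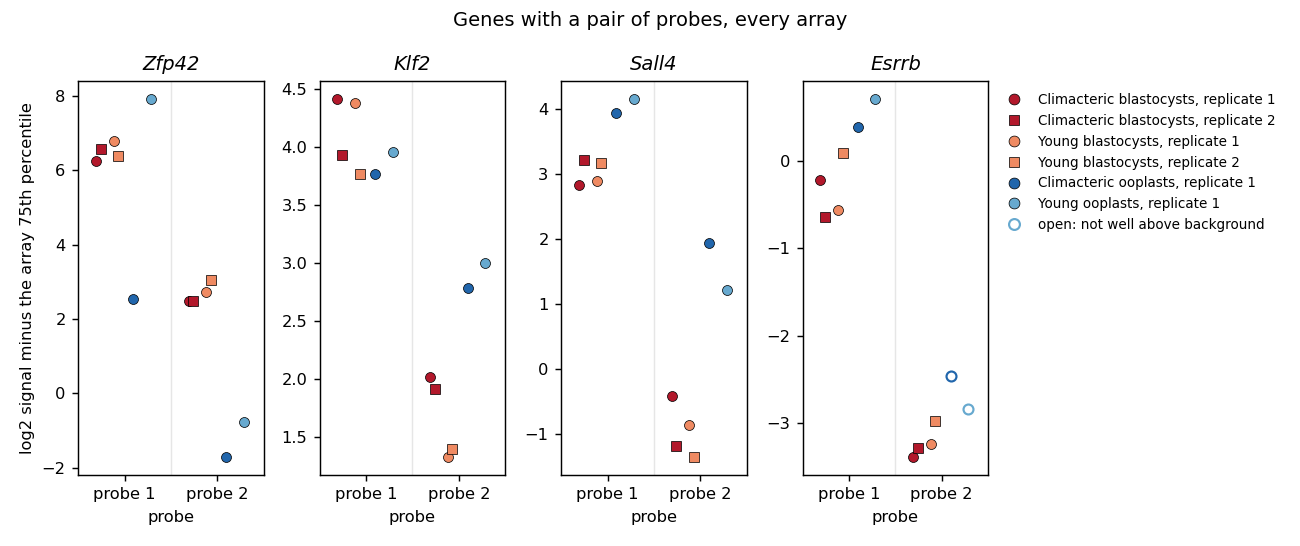
Level on every array (vertical axes, log2 of signal over the 75th percentile of the array, a separate scale per gene) for the 4 genes with a pair of probes, with circles for replicate 1, squares for replicate 2 and open symbols where a probe was not well above background. The climacteric ooplast array reads 2.55 with Zfp42 probe 1 against 7.93 on the young one, while with probe 2 they read -1.71 and -0.77.

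By probe rather than by gene, 14 of the 17 probes passed the filter on dim probes, and 10 were above background on all 6 arrays, covering 7 of the 10 genes. Of the 14, 4 were called higher and 4 lower in blastocysts and 6 were not called, where 73.8% of the 20983 probes tested passed in either direction. The 3 probes that did not pass the filter are Tfcp2l1 probes 2, 3 and 4.

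Age was compared first in blastocysts, to ask whether embryos from oocytes of reproductively aged females differ in these genes. None of the 10 genes passed the test between climacteric and young blastocysts. The limma adjusted p was 0.9999 for every one, and differences ran from -0.39 ± 0.41 (SE) for Tfcp2l1 to 0.52 ± 0.41 (SE) for Pou5f1. Over the whole array, 0 of 15971 genes (0%) passed this test, with 864 genes at an unadjusted p under 0.05 and a smallest adjusted p of 0.241 in limma. With the probe that stood for each gene, climacteric and young blastocysts overlapped for all 10 genes, where 30.0% of all genes tested had ages that did not overlap.

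Within slides, the differences between climacteric and young blastocysts took the same sign on both slides for 3 of the 10 genes, Pou5f1, Klf4 and Klf2, each higher in climacteric blastocysts. Pou5f1 was 0.79 higher in climacteric than in young blastocysts on slide 1 and 0.24 higher on slide 2. Klf4 was 0.11 and 0.21 higher and Klf2 0.039 and 0.16 higher on slides 1 and 2. Over both slides Klf4 differed by 0.16 ± 0.56 (SE) and Klf2 by 0.10 ± 0.36 (SE). How many of all genes kept their sign on both slides was not counted. The difference for Nanog was 1.11 on slide 1 and -0.43 on slide 2. Among all 17 probes, 4 had ages that did not overlap and none passed the test. Of all genes tested, by 1 probe each, 30.0% had ages that did not overlap, so 4 of 17 is not a larger share. Klf2 probe 2 was higher in climacteric blastocysts, at 2.02 and 1.91 against 1.33 and 1.39 in young ones, and Zfp42 probe 2 was lower, at 2.48 and 2.49 against 2.73 and 3.07. The other 2 were the faint Esrrb probe 2 and Tfcp2l1 probe 4.

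**Figure D4:**
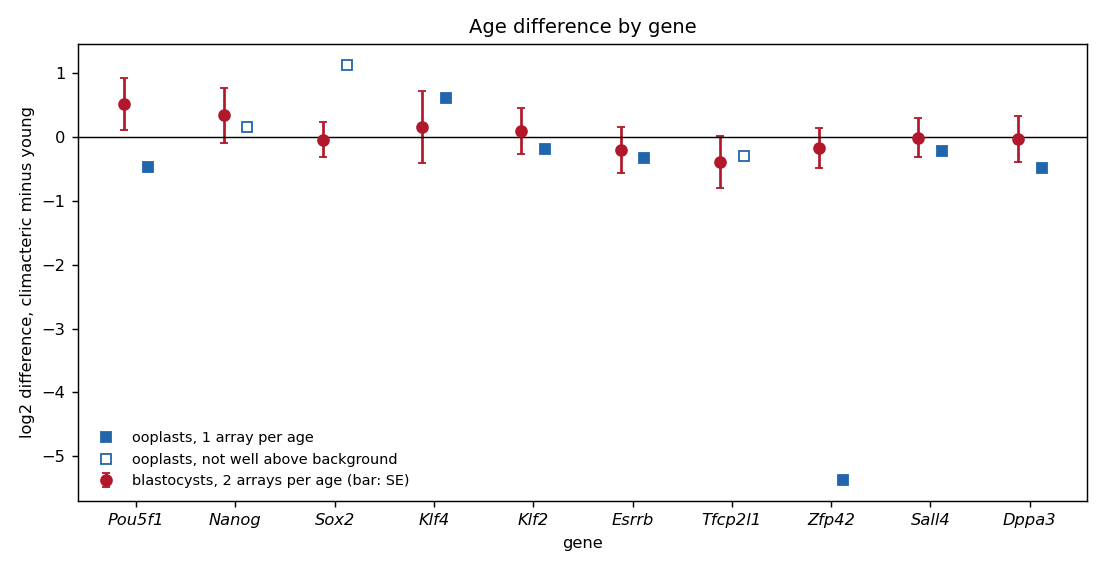
Difference by age (vertical axis, log2, climacteric minus young) for the 10 genes in blastocysts (red circles, 2 arrays per age, bars are SE) and in ooplasts (blue squares, 1 array per age, no error, open where not well above background). The blastocyst differences lie between -0.39 and 0.52, and Zfp42 in ooplasts stands alone at -5.37.

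In ooplasts each age has 1 array, so differences there have no replicate check and no test. By the probe that stood for each gene, 6 of the 7 genes above background on both ooplast arrays read lower and 1, Klf4, read higher in climacteric ooplasts, though Sall4, Dppa3 and Klf2 read higher there by 0.036, 0.052 and 0.029 with quantile normalization, and also in the authors' values. Sall4 read higher there by 0.73 with its probe 2, and with the mean of probes Sall4 read higher by 0.26 and Esrrb by 0.028. Only Zfp42 was at least 2-fold apart, 1 of 7, where 17.2% of the 12291 genes above background on both arrays were. With these probes the other 6 lay within 0.61 of 0 on the log2 scale: Klf4 at 0.61, Dppa3 at -0.48, Pou5f1 at -0.46, Esrrb at -0.32, Sall4 at -0.21 and Klf2 at -0.18, beside a median of 0.15 over all 12291 genes.

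Zfp42 probe 1 had a signal of 1396 units on the climacteric and 57235 units on the young ooplast array. After scaling it was 41.4-fold lower in climacteric ooplasts, a log2 difference of -5.37, and 161 of the 12291 genes were lower there by at least as much, against 1 gene higher by as much. The second Zfp42 probe read 1.91-fold lower in climacteric ooplasts, a log2 difference of -0.93. The probes thus differed in size while both read lower, and which one follows the mRNA was not tested.

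The age difference of Zfp42 by probe 1 was tested against itself between stages, in a model with the 4 groups as terms. In blastocysts the difference between climacteric and young was -0.17 ± 0.31 (SE), and the difference between stages in that age effect was 5.20 ± 0.55 (SE) with limma adjusted p = 0.0311. It was the only 1 of the 10 genes to pass, where 0.852% of the 15605 genes tested did. The test takes its spread from the blastocyst arrays and assumes that the lone ooplast arrays vary alike. By probe 2 the same quantity was 0.52 with adjusted p = 0.906, and with quantile normalization, the authors' deposited values, the mean of both probes or no filter on dim probes the call was lost. It was also lost without replicate 1 of climacteric blastocysts (5.36, adjusted p = 0.107), replicate 2 of climacteric blastocysts (5.03, adjusted p = 0.120) or replicate 1 of young blastocysts (5.39, adjusted p = 0.0503), with fewer arrays to estimate the spread.

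The wider network moved in both directions between stages, as did the array as a whole. Of 29 other pluripotency genes on the array, 25 were tested, of which 11 rose and 10 fell in blastocysts. Of all genes tested, 35.5% rose and 39.0% fell. The median difference was 0.51 over these 25 genes and -0.26 over all genes. Mycn, a proto-oncogene of embryonic stem cells, was at least 149-fold higher in blastocysts and Klf5, a Krüppel-like factor of the early embryo, at least 78.2-fold higher. Fbxo15, an F-box gene used as a stem cell reporter, rose by 3.65 ± 0.24 (SE) on the log2 scale, Tdh, the threonine dehydrogenase of mouse embryonic stem cells, by 3.55 ± 0.26 and the zinc finger factor Zfp281 by 3.45 ± 0.43. In the other direction Tcl1, an Akt coactivator, differed by -7.61 ± 0.28 (SE), the RNA-binding protein gene Lin28a by -3.98 ± 1.10 and the homeobox gene Gbx2 by -3.44 ± 0.68. Lin28a was above background on 2 and Gbx2 on 1 of the 4 blastocyst arrays, and Zfp281 on 1 of the 2 ooplast arrays. These 8 genes had limma adjusted p from 9.28e-06 to 0.0162. They kept their direction in every alternative fit in which they were measured, and Lin28a was called in 14 of 16 and Gbx2 in 15 of 16.

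Of the receptors and relays of LIF, 8 were tested, of which 2 rose and 5 fell, where 35.5% of all genes tested rose and 39.0% fell. The 2 that rose are feedback inhibitors of the pathway, Cish at 8.37 ± 0.36 (SE) and Socs3 at 2.93 ± 0.36 on the log2 scale. Among those that fell were the kinase gene Jak2 at -4.79 ± 0.41, the inhibitor gene Pias1 at -3.20 ± 0.32 and Il6st, which encodes the shared receptor subunit gp130, at -2.98 ± 0.46 (limma adjusted p from 1.19e-05 to 0.0014 for these 5). Cish was above background on 1 of the 2 ooplast arrays. The receptor gene Lifr differed by -0.20 ± 0.39 and was not called.

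Relatives of the 10 factors were counted by family, beside the 35.5% of all genes that rose and the 39.0% that fell. Among other KLF genes 6 of 12 tested rose and 4 fell: Klf6 was higher by 6.12 ± 0.26 (SE) and Klf9 at least 21.0-fold higher in blastocysts, while the genes that fell included Klf17, known from oocytes, at -3.59 ± 0.25, Klf16 at -3.47 ± 0.76 and Klf7 at -2.81 ± 0.27. Among other SOX genes 2 of 11 rose, Sox17 by 3.06 ± 0.65 and Sox13 to at least 9.56-fold higher, and 7 fell, with Sox11 at -3.34 ± 0.35, Sox12 at -1.59 ± 0.26 and Sox4 at -1.52 ± 0.33. Sox8 was not above background in blastocysts and at least 20.9-fold lower there. Of other POU genes 6 of 7 fell, led by Pou2f2 at -3.33 ± 0.35 and Pou2f1 at -2.68 ± 0.29. Pou6f1 was at least 1.10-fold higher in blastocysts, and its difference changed sign in 1 of 16 alternatives. Of the relatives of Sall4, Esrrb and Tfcp2l1, 5 of 8 fell, among them Sall2 at -6.33 ± 0.73, Esrra at -5.30 ± 1.05 and Ubp1 at -3.71 ± 0.35, and 2 rose, of which Grhl2 was higher by 4.77 ± 0.33. The ooplast arrays were far apart for Esrra, at 2.64 in climacteric and 6.89 in young ooplasts. Its stages overlapped, with replicate 2 of young blastocysts at 2.92. Klf16 likewise stood at 3.64 in climacteric and 7.47 in young ooplasts, though above every blastocyst array. Sox11, Pou2f2 and Sall2 were above background on 1 of the 4 blastocyst arrays each. Sox4 was above background on 1 of the 2 ooplast arrays but on all 4 blastocyst arrays. In blastocysts Sox4, at a mean of -2.73, and Sox12, at -2.63, lay below the faintest level counted as above background in ooplasts. Whether their fall reflects this lower floor was not tested. The genes named here as higher or lower passed limma with adjusted p of at most 0.0065.

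The list of formative and primed states, which follow the naive state at implantation, has 12 genes on the array, of which 4 passed the filter on dim probes for the stage test and 6 that for age. Of the 4 the DNA methyltransferase gene Dnmt3b rose by 2.43 ± 0.39 (SE), Dnmt3a fell by 4.51 ± 0.45 and Fgf5, not above background in blastocysts, was at least 3.94-fold lower there. Lefty1, Zic2, Sox3, T and Cer1 were above background on none of the 6 arrays, and Otx2 and Lefty2 on at least 1 blastocyst array and neither ooplast array.

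Of the lineages that form beside the epiblast, 11 of 12 trophectoderm markers rose and the other, Plac1, not above background in ooplasts, was not called (adjusted p = 0.103). For this and the lists below, 35.5% of all genes tested rose and 39.0% fell. Id2 was at least 558-fold and Tead4 at least 113-fold higher in blastocysts, and Cdx2 was higher by 9.05 ± 0.55, Krt18 by 8.25 ± 0.30 and Gata2 by 8.15 ± 0.74 on the log2 scale. Of 8 primitive endoderm markers tested, 5 rose and 1, Gata4, fell by 1.68 ± 0.44, a call made in 13 of 16 alternatives. Gata6 was higher by 5.06 ± 0.25 and Pdgfra at least 8.12-fold higher, while Foxa2, not above background in ooplasts and at least 4.34-fold higher in blastocysts, was called in 11 of 16 alternatives and Col4a1 at 1.41 ± 0.50 in 6 of 17. Of oocyte markers 11 of 11 tested fell, with Oosp1 at -13.30 ± 0.98, Bmp15 at -11.18 ± 0.68 and Gdf9 at -9.96 ± 0.29, and Zar1 and Nobox at least 3520-fold and 173-fold lower. Of 7 cumulus markers tested 4 fell and 1, Amhr2, rose, and of 4 leucocyte markers 1, Csf1r, fell, a call made in 13 of 17 alternatives. Cdx2, Gata2 and Amhr2 were above background on 1 of the 2 ooplast arrays, and Oosp1, Gata4 and Bmp15 on 3, 3 and 1 of the 4 blastocyst arrays. With age in blastocysts no gene of any of these 12 lists was called.

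**Figure D5:**
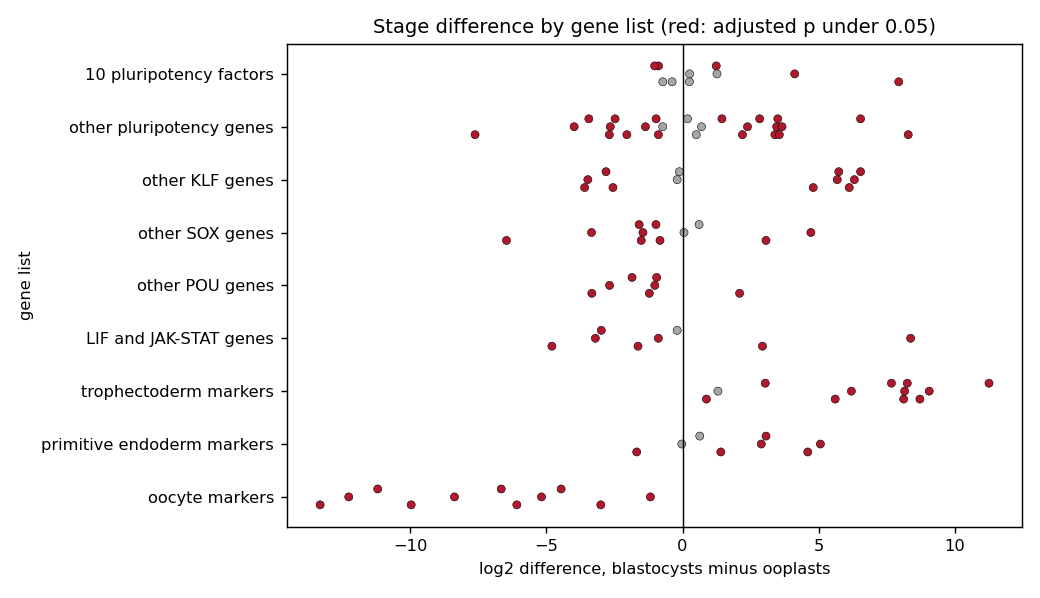
Difference between stages (horizontal axis, log2, blastocysts minus ooplasts) for each gene tested in 9 groups of genes, 1 point per gene with red for adjusted p under 0.05 over all genes and a vertical offset only to separate points. The 10 pluripotency factors and the other pluripotency genes lie on both sides of 0, trophectoderm markers lie to the right and oocyte markers to the left.

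The genes whose pattern over the 6 arrays was most like that of each detected factor were sought among 9403 genes above background on all arrays, as the smallest root mean square difference between centred levels. For Dppa3 these were Plpp1 at 0.0485 and Tada2a at 0.125, and for Sall4 Zmiz1 at 0.0621 and Brd7 at 0.0800. For Esrrb they were Fkbp1a at 0.0897 and Alg2 at 0.136, and for Klf2 Asxl1 at 0.0966 and Prpf39 at 0.105. Pou5f1 was matched by Slc35c2 at 0.104 and Dbi at 0.140, and Klf4 by Pgap3 at 0.143 and Dtnb at 0.148. Zfp42 by probe 1 was matched by Hdac1 at 0.102 and Cmbl at 0.175. The climacteric ooplast array stands apart in that Zfp42 pattern, at 2.55, and probe 2 did not repeat it in size. How close a match over 6 arrays arises by chance was not tested.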

How the data were processed

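Per the labels' protocols, RNA was isolated on columns without DNase, amplified and labelled with Cy3. Per the file headers, the deposited spot intensity had been background-subtracted by Agilent Feature Extraction (9.5, per the submitters' processing notes) with spatial and multiplicative detrending and without scaling between arrays, and probes were placed on mm8. The flags for background, saturation and outliers are the scanner software's own, per the file headers. The value table is in log2 units, as deposited by the authors. Each of its columns ranked spots as that array's processed signal does and lay within rounding of its quantile normalization on the linear scale, with a median of 6.25, which settles its scale, centring and direction.

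Levels were log2 of processed signal minus the 75th percentile of that array's gene probes. Control spots and outlier-flagged spots (unless all of a probe's were) were left out, and saturated spots, at most 13 on an array, were kept. A probe entered a test when all arrays of 1 or more compared groups had it well above background, and the brightest passing probe stood for its gene, which favours bright probes. Tests used limma 3.58.1 in R 4.3.3 (lmFit, eBayes, two-sided, Benjamini-Hochberg, threshold 0.05) and were checked on simulated data. Stage used 6 arrays with age as a term, age the 4 blastocyst arrays, and the interaction a model of the 4 groups. A lower bound sets the bright group's mean against, per array, the higher of the faintest level above background and the probe's own. It holds for the main levels only, and alternatives gave smaller differences for some genes. A p-value given with a bound belongs to the difference between readings and not to the bound.

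Names came from RefSeq (GRCm38.p6), with 24375 of 41174 probes matched by accession, 6301 by symbol and 2426 by synonym, and 8072 kept as in the files. Promoter windows came from RefSeq. Genome sequence other than those windows, mm8 annotation, proteins and probe sequences were not used here. Whether a probe lies in a coding exon or a UTR is therefore left unstated. The 10 genes and the gene lists were chosen with earlier results of these data known. Named genes are the 10 members with every probe, and per list up to 3 called higher and 3 called lower that were above background at both stages, up to 2 bounds per direction, and the 2 genes most like each detected member; unnamed clones were passed over, and 1 gene is not reported here. The alternatives tried were normexp with offset 50, quantile normalization, a percentile over detected probes only, the authors' values, the mean of a gene's probes, each probe alone, no filter or a stricter one, each array left out, slide as a block, single slides and ages.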

Additional observations from a re-analysis of the deposited data

Results flagged for a closer look

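Among the 14 probes of these genes that were above background on all 4 blastocyst arrays, 1 had an array far from the other 3. Tfcp2l1 probe 1 read 5.23 on the array of young blastocysts, replicate 2, against 4.26 to 4.36 on the others. Chance flags about 1 in 20 groups in this way, and the cause was not tested.

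The age difference of Zfp42 by probe 1 differed between stages by 5.20 on the log2 scale (limma adjusted p = 0.0311), as -0.17 in blastocysts against -5.37 in ooplasts. It rests on 1 array per age in ooplasts, and the second probe gave 0.52 with adjusted p = 0.906. The cause was not tested.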

How the results depend on the processing

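With stage, 11621 genes were called, 47.7% of them higher in blastocysts, and 8107 to 11907 under the alternatives other than no filter on dim probes, which gave 19945 (5610 higher and 14335 lower). The faintest level above background was lower on the blastocyst than on the ooplast arrays. Its part in the added lower calls was not tested. Of the 10 genes 5 were called, 3 to 5 with 1 array left out, 3 within slide 1 or the climacteric arrays alone, and 2 with probes above background on all arrays, a rule that removes Nanog, Sox2 and Tfcp2l1. Nanog and Tfcp2l1 were called in all 17 alternatives each, Sall4 in 16 of 19 (not without the young ooplast array, nor with 1 age alone), Sox2 in 13 of 17 and Esrrb in 10 of 19. Reversed stage differences were those of Dppa3 (0.46 with quantile normalization, 0.45 with the authors' values), Pou5f1 (-0.0025 with the authors' values, -0.24 with young arrays alone, -0.24 to 0.74 with 1 array left out), Klf2 (-0.48 with the mean of its probes, -1.23 by probe 2) and Zfp42 (-1.33 with young arrays alone, -1.33 to 3.86 with 1 array left out). Zfp42 was called higher by the mean of its probes, at 2.60.

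Age in blastocysts called 0 genes in every alternative run, the replicate block and the 4-group model included (limma). Uncalled age differences reversed for Sall4 (0.11 with quantile normalization and 0.11 with the authors' values, 0.15 on detected probes, 0.016 with normexp, 0.15 with the mean of its probes, 0.30 by probe 2), Dppa3 (0.030 with quantile normalization, 0.13 on detected probes, 0.029 with the authors' values), Sox2 (0.12 on detected probes, 0.066 with normexp) and Tfcp2l1 (0.90 by probe 3). With 1 array left out the ranges were Dppa3 -0.38 to 0.33, Esrrb -0.53 to 0.12, Klf2 -0.20 to 0.41, Klf4 -0.43 to 0.75, Nanog -0.096 to 0.78, Sall4 -0.19 to 0.18, Sox2 -0.12 to 0.047, Tfcp2l1 -0.87 to 0.098 and Zfp42 -0.37 to 0.019. The interaction called 133 genes, 25 with quantile normalization, 0 with the authors' values and 0 to 161 with 1 array left out. Among the 10 genes it called 1, and 0 with quantile normalization, the authors' values, the mean of probes or no filter and 0 to 1 with 1 array left out; it could not be fitted without either ooplast array. Zfp42 was then at 4.23, 4.02, 2.86 and 5.20, with adjusted p from 0.0522 to 0.111. Where no value above shows it, the cause was not tested.

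Replicate numbers coincide with slides. Same-numbered blastocyst arrays deviated together with a correlation of 0.17 over 2 pairs, which cannot establish a pairing. With the replicate block 10771 genes and 4 of the 10 were called for stage (Esrrb was lost), and 173 genes and 1 of the 10 for the interaction. Of the 7 genes above background on both ooplast arrays, only Zfp42 was at least 2-fold apart in all scalings, at -4.10 to -5.37 by probe 1. Over the alternatives, stage called 5 to 12 of the wider pluripotency genes higher and 6 to 11 lower, 1 to 6 and 4 to 5 of the KLF, 1 to 3 and 3 to 9 of the SOX and 0 to 1 and 4 to 11 of the POU genes. It called 5 to 12 trophectoderm and 3 to 6 primitive endoderm markers higher, and 4 to 11 oocyte, 2 to 5 cumulus and 0 to 4 leucocyte markers lower. Faint probes limit what can be read: 3 of the 10 genes have only a bound in ooplasts.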
